A study of Homo sapiens with 3 samples.

Results

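The 9 genes described here are GAS5, SNHG1, SNHG5, SNHG6, SNHG8, SNHG12, SNHG15, SNHG16 and ZFAS1, long noncoding RNA (lncRNA) genes that carry small nucleolar RNAs (snoRNAs) in their introns. They were taken by name from a table of 44591 genes and were chosen by their measured ratios in the RBCK1 knockdown libraries to the control library, so those ratios are given as a description. All 9 averaged 1 RPKM or more across the libraries, as did 12403 genes of the table, 424 of them typed as lncRNA. RPKM divides the reads of a gene by its length and by the depth of the library, and ratios below are log2 ratios of RPKM + 1 unless reads are named.

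RNA was sequenced from Caki-1, an established human renal carcinoma cell line, at 48 h of knockdown with si-RBCK1 #1 or si-RBCK1 #2, or of treatment with the control siRNA si-Control, and values below follow the order si-Control, si-RBCK1 #1, si-RBCK1 #2 wherever 3 are listed. The general transfection methods give 10 nM siRNA. The labels name the target HOIL-1, the other name of RBCK1, which encodes a subunit of the linear ubiquitin chain assembly complex. Each condition had 1 library, which leaves every difference without a replicate check, and both comparisons share the same si-Control library.

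Host genes of this family are transcribed and spliced, and snoRNAs are cut out of their introns while the joined exons become the lncRNA. Box C/D snoRNAs guide ribose methylation of ribosomal RNA and box H/ACA snoRNAs guide its pseudouridylation. Several of these host transcripts start with a 5′ terminal oligopyrimidine (TOP) tract, as ribosomal protein mRNAs do, and GAS5 is a textbook substrate of nonsense-mediated decay, the translation-dependent removal of RNAs with an early stop codon. In tumour cells, GAS5 is known as a growth arrest transcript, while SNHG1, SNHG12, SNHG15 and ZFAS1 have mostly been studied as RNAs of proliferating cells.

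The libraries were scaled by 36926834 reads (si-Control), 40442939 reads (si-RBCK1 #1) and 36344428 reads (si-RBCK1 #2), found from the steps between low RPKM values. Reads given for a gene are the smallest whole numbers that its RPKM values allow (the true ones may be a multiple), and their 95% intervals (exact Clopper-Pearson) cover counting error only. RBCK1 itself had 33.3, 9.97 and 12.3 RPKM. The renal lineage factor PAX8 was at 82.5 to 124 RPKM, the epithelial keratin KRT8 at 65.6 to 238 RPKM and VIM at 664 to 1512 RPKM, with the last 2 lowest in si-Control. Of 14 renal markers, 7, 9 and 10 reached 1 RPKM, with sums of 1118, 2046 and 2051 RPKM over the list and with CA9 and PAX2 near 0 throughout. Of 9 markers of other cell types, 2 did in each library, with sums of 46.8, 54.7 and 57.1 RPKM, mostly CD68 at 41.8 to 52.3 RPKM. The part of the markers' differences in the results below was not tested, and fewer cells with an RNA cannot be told apart from less RNA per cell in bulk libraries.

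The start sites of the host genes are shown because a tract of C and T at the first bases is what groups several of these noncoding RNAs with ribosomal protein mRNAs. RefSeq promoter windows (GRCh38.p14) matched 7 of the 9 genes, and SNHG6 and SNHG15 had no entry. Each sequence runs from 45 bases before the annotated start through the first 20 transcribed bases, with capitals marking the run of C or T from the first base and, where found 16 to 45 bases before it, the letters TATAA.
SNHG12 (chr1:28581854-28581918, minus strand): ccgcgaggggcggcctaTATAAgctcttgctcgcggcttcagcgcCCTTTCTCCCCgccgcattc
ZFAS1 (chr20:49278597-49278661, plus strand): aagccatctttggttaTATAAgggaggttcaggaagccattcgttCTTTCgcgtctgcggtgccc
SNHG5 (chr6:85678714-85678778, minus strand): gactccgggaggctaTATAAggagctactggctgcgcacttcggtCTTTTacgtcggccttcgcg
SNHG1 (chr11:62855866-62855930, minus strand): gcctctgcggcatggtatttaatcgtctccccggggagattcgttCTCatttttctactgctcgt
SNHG8 (chr4:118278717-118278781, plus strand): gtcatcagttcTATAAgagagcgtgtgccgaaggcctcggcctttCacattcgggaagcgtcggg
SNHG16 (chr17:76557719-76557783, plus strand): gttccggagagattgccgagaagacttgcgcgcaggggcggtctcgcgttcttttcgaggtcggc
GAS5 (chr1:173869026-173869090, minus strand): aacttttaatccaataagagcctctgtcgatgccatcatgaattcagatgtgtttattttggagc
The run from the first base was 11 bases in SNHG12, 5 in ZFAS1, 5 in SNHG5, 3 in SNHG1 and 1 in SNHG8, whereas the annotated first base was G in SNHG16 and A in GAS5. A start at C followed by C or T over at least 5 bases in all was present in 4.07% of 35116 RefSeq windows. The letters TATAA, searched on the strand that reads like the RNA, lay upstream in SNHG5, SNHG8, SNHG12 and ZFAS1 and in 4.09% of all windows. The longer TATATAA, which contains TATAA, lay in SNHG5, SNHG12 and ZFAS1 and in 0.618% of all windows. These letters describe the annotated starts only, and no start site was measured here. The windows were taken by gene symbol and were not matched to the 5′ ends of the gene intervals given below. The GAS5 window therefore need not cover the start of the GAS5 RNA counted here, and the same holds for the other genes. A tract at another start of GAS5 or SNHG16 would not be seen.

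GAS5 was the most abundant of the 9 genes in each library. It lies at chr1:173833039-173837125 on the minus strand in the table's own coordinates (hg19 in the submitters' processing notes, as for the other host genes). GAS5 had 707, 260 and 235 RPKM in the order given above, from 8245, 3317 and 2698 reads. Both knockdown libraries were thus lower than si-Control and close to each other, with GAS5 at 36.7% and 33.2% of its control level. Its log2 ratios came to -1.44 and -1.58. Counting intervals on reads ran from -1.50 to -1.39 for si-RBCK1 #1 and from -1.65 to -1.53 for si-RBCK1 #2. GAS5 ranked as the highest lncRNA in all 3 libraries, while among all genes that are not protein-coding it ranked 3 with si-Control, 6 with si-RBCK1 #1 and 8 with si-RBCK1 #2.

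SNHG1 (chr11:62619460-62623360, minus strand), which holds a row of box C/D snoRNAs, had 248, 95.9 and 79.2 RPKM, from 10229, 4335 and 3217 reads. Its log2 ratios were -1.36 and -1.63. SNHG1 was thereby lower in both knockdown libraries by nearly the same amount as GAS5.

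ZFAS1 (chr20:47894715-47905797, plus strand), the host of the SNORD12 snoRNAs that starts against the promoter of ZNFX1, had 250, 122 and 94.6 RPKM, from 9497, 5077 and 3542 reads. The log2 ratios were -1.03 and -1.39. ZFAS1 was lower in both knockdown libraries and lowest with si-RBCK1 #2.

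Of the other box C/D hosts, SNHG5 (chr6:86386725-86388451, minus strand), which carries the SNORD50 pair, had 252, 191 and 187 RPKM. Its log2 ratios were -0.39 and -0.43. SNHG5 started from nearly the same control level as SNHG1 and ZFAS1 and was the least lowered of these 3 abundant hosts in each comparison.

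SNHG16 (chr17:74553846-74561430, plus strand), the host of the SNORD1 family, had 89.9, 102 and 77.8 RPKM. It lay above control with si-RBCK1 #1 (log2 ratio 0.19) and below it with si-RBCK1 #2 (-0.21), so the siRNAs gave opposite signs. SNHG6 (chr8:67834165-67837777, minus strand), which carries SNORD87, had 88.1, 120 and 98.3 RPKM. SNHG6 was higher in each knockdown library, with log2 ratios of 0.44 and 0.16.

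The 2 hosts of a single box H/ACA snoRNA were both lower. SNHG15 (chr7:45022627-45026259, minus strand), a short-lived RNA that carries SNORA9, had 60.9, 22.1 and 17.6 RPKM, from 1805, 718 and 514 reads. The log2 ratios were -1.42 and -1.73, the latter the lowest of the 9 genes. SNHG8 (chr4:119199917-119200978, plus strand), the host of SNORA24, had 97.6, 57.0 and 45.7 RPKM, with log2 ratios of -0.76 and -1.08.

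SNHG12 (chr1:28905050-28908366, minus strand), which holds both snoRNA classes, was the least abundant of the 9 genes with si-Control, at 27.9 RPKM, and had 28.4 and 38.0 RPKM in the knockdown libraries, from 760, 850 and 1020 reads. Its log2 ratio was 0.03 with si-RBCK1 #1, with an interval on reads from -0.11 to 0.17, so no difference was detectable at this depth, and the ratio was -0.03 with libraries scaled to equal totals. With si-RBCK1 #2 the ratio was 0.43, and the interval ran from 0.31 to 0.58.

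**Figure D1:**
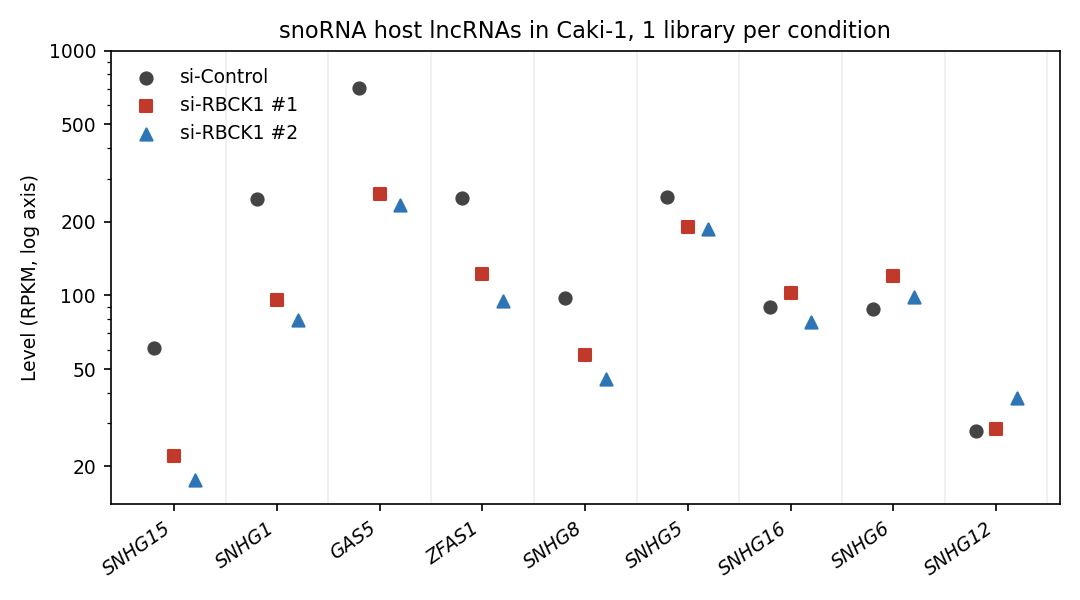
Level in RPKM (vertical log axis) of each of the 9 host lncRNAs in the si-Control, si-RBCK1 #1 and si-RBCK1 #2 libraries, 1 point per library, ordered by the ratio with si-RBCK1 #2. GAS5 stands highest at 707 RPKM with si-Control, and for SNHG15, SNHG1, GAS5, ZFAS1, SNHG8 and SNHG5 both knockdown points lie below the control point.

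Counted over the family, 6 of 9 genes were lower by any amount with si-RBCK1 #1, against 48.4% of all 12403 genes, and 7 of 9 with si-RBCK1 #2, against 46.4%. GAS5, SNHG1, SNHG8, SNHG15 and ZFAS1, 5 of 9, were at least 1.5-fold lower with si-RBCK1 #1, where 11.6% of all genes were. The count was also 5 of 9 with si-RBCK1 #2, where 9.32% of all genes were. At least 2-fold lower were 4 of 9 with si-RBCK1 #1 (3.27% of all genes) and 5 of 9 with si-RBCK1 #2 (2.27% of all genes). None of the 9 genes was at least 1.5-fold higher, as 12.1% and 11.3% of all genes were. Because the genes were chosen with these ratios known, the counts describe the choice and nothing is read from them.

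The median log2 ratio of the 9 genes was -0.76 with si-RBCK1 #1 and -1.08 with si-RBCK1 #2. The median of all genes was 0.02 and 0.03, and that of the 424 lncRNA genes was -0.19 and -0.13. LncRNA genes held a larger share of low ratios than all genes did. At least 1.5-fold lower were 21.9% of lncRNA genes with si-RBCK1 #1 and 16.5% with si-RBCK1 #2. Of 22 lncRNA genes that average 20 RPKM or more, a group that holds all 9 host genes, 40.9% were at least 1.5-fold lower in each comparison, and among the 13 that are not of the 9 genes the count was 4 in each.

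Ranked from the lowest log2 ratio among 12403 genes, the low end of the family stood at 101 (GAS5), 110 (SNHG15), 132 (SNHG1), 374 (ZFAS1) and 838 (SNHG8) with si-RBCK1 #1. With si-RBCK1 #2 the ranks were 30 for SNHG15, 39 for SNHG1, 46 for GAS5, 88 for ZFAS1 and 229 for SNHG8. SNHG5, SNHG6, SNHG12 and SNHG16 lay within the bulk of all genes in the plot of the ratio distribution.

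**Figure D2:**
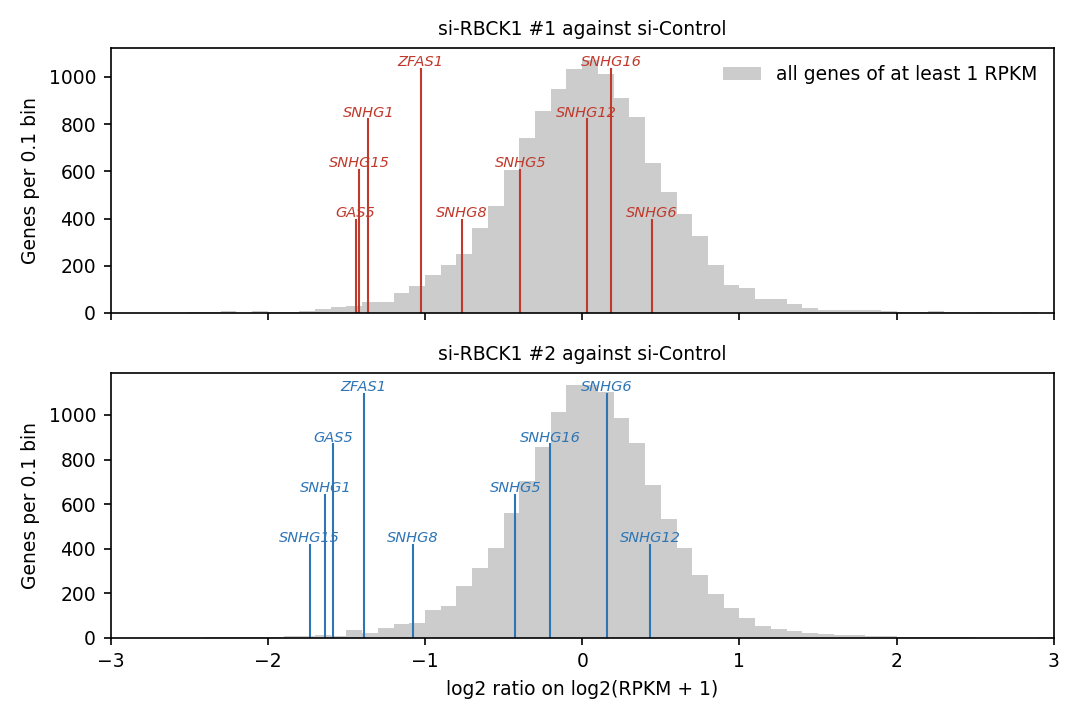
Histogram of the log2 ratios on log2(RPKM + 1) of the 12403 genes that average 1 RPKM or more (grey, genes per bin of 0.1), with a named line for each of the 9 host lncRNAs, for each knockdown library against si-Control. The lines of GAS5, SNHG1, SNHG15 and ZFAS1 stand in the left tail in both panels, and those of SNHG5, SNHG6, SNHG12 and SNHG16 stand inside the bulk.

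Together the 9 genes summed to 1820, 998 and 873 RPKM. On the smallest whole reads they took at least 0.126%, 0.0774% and 0.0646% of the libraries. GAS5 made up 38.8% of the summed RPKM with si-Control and 26.0% and 26.9% with si-RBCK1 #1 and #2, and the span from the highest to the lowest gene narrowed from 25.4-fold with si-Control to 11.7-fold and 13.3-fold. The order of levels changed accordingly. With si-Control the order below GAS5 was SNHG5, ZFAS1 and SNHG1, which lay between 248 and 252 RPKM, followed by SNHG8, SNHG16, SNHG6, SNHG15 and SNHG12. With si-RBCK1 #2 SNHG5 came next to GAS5 at 187 RPKM, SNHG6 and ZFAS1 followed at 98.3 and 94.6 RPKM, and SNHG15 was last at 17.6 RPKM. Without replicates, which of these neighbours differ beyond the spread between cultures cannot be told.

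Compared with each other, without the control library, the siRNAs gave levels within 1.5-fold for each of the 9 genes, while 2.32% of all genes were at least 1.5-fold higher and 3.85% at least 1.5-fold lower with si-RBCK1 #1 than with si-RBCK1 #2. Higher with si-RBCK1 #1 by any amount were 8 of 9 genes, against 48.2% of all genes. On reads, the log2 ratio of si-RBCK1 #1 to si-RBCK1 #2 was 0.03 for SNHG5 (interval -0.04 to 0.10) and 0.14 for GAS5 (0.07 to 0.22). The other positive ratios ran from 0.28 for SNHG1 to 0.40 for SNHG16 (0.35 to 0.44). SNHG12 was the exception, lower with si-RBCK1 #1 by a log2 ratio of -0.42 (-0.55 to -0.28).

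**Figure D3:**
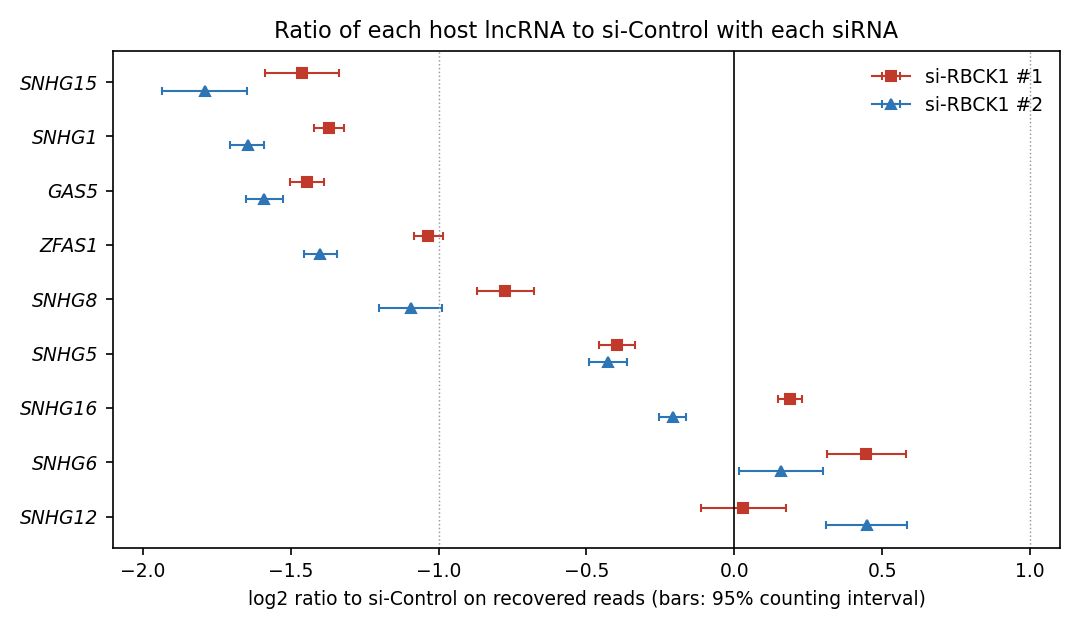
Log2 ratio of recovered reads in si-RBCK1 #1 (squares) and si-RBCK1 #2 (triangles) to si-Control for each host lncRNA, with bars for the 95% counting interval and dotted lines at 2-fold. SNHG15 lies farthest left at -1.79 with si-RBCK1 #2, SNHG16 has 1 point on each side of 0, and the bar of SNHG12 with si-RBCK1 #1 spans 0.

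The siRNA strands were compared with the host transcripts, since a stretch of 7 bases paired with the guide can lower an RNA that is not the target. The sense strands, with capitals for positions 12 to 18, which read like the site paired with guide positions 2 to 8, were as follows.
si-RBCK1 #1: ggtgcaccttcATCAACAa
si-RBCK1 #2: ggattaccagcGATTTCTa
In the longest transcript of each host gene in GENCODE v29, 0 of 9 held the capital letters of si-RBCK1 #1, and 3 of 9, SNHG1, SNHG5 and SNHG15, held those of si-RBCK1 #2. Neither full strand was found in any of the 9 transcripts. Among transcripts within 10% of the same length, a match was present in 6.59% to 22.0% for si-RBCK1 #1 and in 6.10% to 26.8% for si-RBCK1 #2. The letters say nothing about pairing in these cells.

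Inside the intervals of the 9 genes and on their strand, the table listed 34 snoRNA rows, 28 of box C/D (SNORD) and 6 of box H/ACA (SNORA), and 33 of them had at least 1 read. They allow each host RNA to be set beside the snoRNA rows inside it. Some rows overlap an exon of some annotated host transcripts. SNORD25 lay in an intron of 2 of the 7 SNHG1 transcripts that span it, SNORD22 in 12 of 15 and SNORD30 in 19 of 19. Reads of a snoRNA and of a host exon at such a place cannot be told apart. The following show both classes and some of the rows described next, from GENCODE v29 on GRCh38, with capitals for the box C letters TGATGA where exact and the box D letters CTGA, or for the ACA near the 3′ end.
SNORD25 (in SNHG1, chr11:62855564-62855632, minus strand): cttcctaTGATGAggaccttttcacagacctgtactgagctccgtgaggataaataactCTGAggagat
SNORD22 (in SNHG1, chr11:62852910-62853035, minus strand): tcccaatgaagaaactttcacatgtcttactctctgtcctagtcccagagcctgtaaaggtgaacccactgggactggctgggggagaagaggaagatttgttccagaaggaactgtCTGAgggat
SNORD28 (in SNHG1, chr11:62854621-62854695, minus strand): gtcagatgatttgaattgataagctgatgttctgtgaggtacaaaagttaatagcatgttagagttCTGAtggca
SNORD12 (in ZFAS1, chr20:49280683-49280772, plus strand): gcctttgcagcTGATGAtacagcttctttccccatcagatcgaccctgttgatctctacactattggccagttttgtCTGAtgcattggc
SNORD12B (in ZFAS1, chr20:49280319-49280409, plus strand): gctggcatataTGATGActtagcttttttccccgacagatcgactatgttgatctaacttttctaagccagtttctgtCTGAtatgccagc
SNORD12C (in ZFAS1, chr20:49278940-49279028, plus strand): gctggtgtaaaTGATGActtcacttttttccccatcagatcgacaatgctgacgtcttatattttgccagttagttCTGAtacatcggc
SNORD99 (in SNHG12, chr1:28578749-28578822, minus strand): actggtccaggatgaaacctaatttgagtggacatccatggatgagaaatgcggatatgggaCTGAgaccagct
SNORA24 (in SNHG8, chr4:118279190-118279320, plus strand): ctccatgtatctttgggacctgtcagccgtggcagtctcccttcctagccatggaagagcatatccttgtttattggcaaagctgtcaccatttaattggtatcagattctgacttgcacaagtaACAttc
SNORA9 (in SNHG15, chr7:44985378-44985510, minus strand): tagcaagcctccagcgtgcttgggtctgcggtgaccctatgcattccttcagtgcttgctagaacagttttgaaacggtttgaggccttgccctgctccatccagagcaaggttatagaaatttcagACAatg
The SNORD12 trio of ZFAS1 shares the same layout, with box C from base 12 in each, and SNORA24 and SNORA9 end in ACA followed by 3 more bases.

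Of the 31 snoRNA rows that average 1 RPKM or more, 15 were lower and 16 higher with si-RBCK1 #1 (median log2 ratio 0.12), and 16 were lower and 15 higher with si-RBCK1 #2 (median -0.05). The 128 snoRNA rows of that level elsewhere in the genome had medians of 0.25 and 0.18. Of these 128 rows, 49 were lower and 79 higher with si-RBCK1 #1, and 56 lower and 72 higher with si-RBCK1 #2. Reads on the rows inside the 9 genes were few, so many single rows had intervals that span 0. Over all 34 rows, the counting interval lay below 0 for 9 rows and above 0 for 5 with si-RBCK1 #1. With si-RBCK1 #2 it lay below 0 for 4 and above 0 for 3. Intervals of the snoRNA rows elsewhere were not counted, so nothing about the hosts is read from these counts.

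For GAS5, the 11 snoRNA rows summed to 595 reads with si-Control, 467 with si-RBCK1 #1 and 449 with si-RBCK1 #2. The summed snoRNA reads had log2 ratios of -0.48 (interval -0.66 to -0.30) and -0.38 (-0.56 to -0.20), against -1.44 and -1.59 for the GAS5 RNA itself on the same scale. The snoRNA sum was thus also lower in both knockdown libraries, at 71.7% and 76.7% of si-Control, and the intervals of host and snoRNAs did not overlap. Single rows inside GAS5 differed from each other. SNORD44 had 99, 49 and 39 reads, and its log2 ratios of -1.15 (-1.67 to -0.64) and -1.32 (-1.89 to -0.77) had intervals that include those of GAS5. SNORD76 had 71, 37 and 37 reads and SNORD78 had 52, 23 and 28. SNORD80, the row with the most reads, had 195, 159 and 179, and SNORD47 had 78, 50 and 68. SNORD74 (47, 39 and 36 reads) lay below control with intervals that span 0. SNORD77 (23, 36 and 24), SNORD79 (19, 32 and 19) and SNORD81 (11, 27 and 15) were not below control in either knockdown library. SNORD75 had 0, 15 and 4 reads, and SNORA103 had 0 in each library.

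For SNHG1, the 8 snoRNA rows summed to 279, 301 and 256 reads. Their log2 ratios were -0.02 (-0.26 to 0.22) and -0.10 (-0.35 to 0.15), while SNHG1 RNA itself was at -1.37 and -1.65. A sum lower by as much as the host lay outside these intervals. SNORD31, with 95, 54 and 65 reads, was the row below control beyond its counting interval with each siRNA. SNORD28 was higher in both, with 10, 53 and 24 reads and log2 ratios of 2.27 (1.28 to 3.42) and 1.29 (0.17 to 2.51). SNORD22, whose long sequence is shown above, had 97, 134 and 77 reads, and SNORD25 had 38, 21 and 46. SNORD26, SNORD27, SNORD29 and SNORD30 had between 4 and 16 reads in each library and intervals that span 0.

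SNHG8 and its single snoRNA stood on opposite sides of control. SNORA24 had 6 reads with si-Control, 36 with si-RBCK1 #1 and 15 with si-RBCK1 #2, giving log2 ratios of 2.45 (1.19 to 3.99) and 1.34 (-0.10 to 3.0), while SNHG8 RNA was at -0.77 and -1.09 on reads. For SNHG15, SNORA9 had 17, 16 and 16 reads, with ratios of -0.22 (-1.30 to 0.86) and -0.06 (-1.15 to 1.01). The ratios of SNHG15 RNA, -1.46 and -1.79, lay outside those intervals.

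For ZFAS1, the 3 SNORD12 rows summed to 36, 23 and 42 reads, with log2 ratios of -0.78 (-1.60 to 0.02) and 0.25 (-0.43 to 0.93). Only the second of these intervals excludes the ratio of the host RNA. SNORD12 itself had 20, 8 and 15 reads, SNORD12B had 15, 11 and 21, and SNORD12C had 1, 4 and 6. SNHG12 and the sum of its 4 snoRNA rows were both at or above control. The snoRNA sums were 170, 252 and 211 reads, with ratios of 0.44 (0.15 to 0.73) and 0.33 (0.04 to 0.63). Among these rows SNORA61 had 137, 184 and 144 reads, SNORA16A had 18, 33 and 38, SNORA44 had 13, 12 and 16 and SNORD99 had 2, 23 and 13.

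For the remaining hosts the counting intervals of the snoRNA sums against si-Control spanned 0 with each siRNA. SNORD50A and SNORD50B of SNHG5 summed to 18, 14 and 9 reads, SNORD87 of SNHG6 had 17, 22 and 14, and SNORD1A, SNORD1B and SNORD1C of SNHG16 summed to 43, 59 and 29. Of these single rows SNORD1B, with 7, 0 and 1 reads, had an interval below 0 with si-RBCK1 #1 (upper bound -0.66). How reads that fall on both a host and a snoRNA inside it were counted is not given in the sources used here, and a fragmented library captures short RNAs incompletely.

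**Figure D4:**
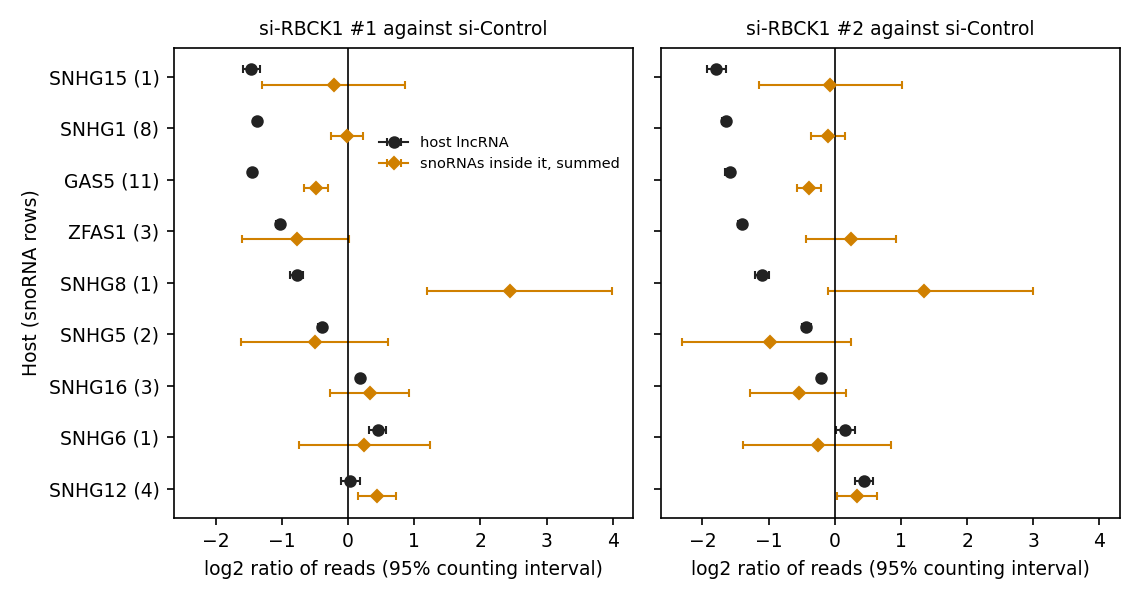
Log2 ratio of reads to si-Control (horizontal axis, bars for the 95% counting interval) of each host lncRNA (circles) and of the summed snoRNA rows inside it (diamonds), for each knockdown library, with the number of snoRNA rows in parentheses. For SNHG1 the circles lie at -1.37 and -1.65 and the diamonds at -0.02 and -0.10, and for GAS5 the diamonds lie at -0.48 and -0.38.

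Several of the 9 genes share their start region with a gene on the other strand, which allows both directions to be compared. SLC3A2, the heavy chain of amino acid transporters, starts 124 bases from SNHG1 and had 130, 125 and 148 RPKM, with log2 ratios of -0.06 and 0.18. ZNFX1, a helicase-domain zinc finger gene whose start overlaps ZFAS1 by 42 bases, had 12.4, 19.1 and 15.1 RPKM and ratios of 0.58 and 0.27. ZBTB37, a zinc finger gene that starts 95 bases from GAS5, had 1.87, 2.80 and 3.21 RPKM and ratios of 0.40 and 0.55. ENSG00000267546.2, an antisense gene that starts 81 bases from SNHG16, was below 1 RPKM in each library. SNHG1, ZFAS1 and GAS5 were each lower in both knockdown libraries while the facing gene was near its control level or above it.

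The other overlapping rows were below 10 RPKM. GAS5-AS1, which overlaps the 3′ end of GAS5 by 41 bases, had 5, 30 and 10 reads. TRNAU1AP, which overlaps SNHG12 by 8 bases, had 8.36, 7.39 and 7.93 RPKM, and MCMDC2, which overlaps SNHG6 by 119 bases, was below 1 RPKM in each library. Whether the counting used strand is not given, so reads in such overlaps cannot be told apart by strand.

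By the rule of the nearest pair of log2 ratios among 8069 other genes averaging 5 RPKM or more, the gene most like GAS5 was C6orf48 (distance 0.117). RefSeq lists C6orf48 under the symbol SNHG32, and the table has 2 snoRNA rows inside it. It had 181, 64.2 and 55.3 RPKM, with log2 ratios of -1.48 and -1.69, and its SNORD52 and SNORD48 had 11, 16 and 23 reads and 10, 11 and 6 reads. The next were SNX24, a sorting nexin, at a distance of 0.121 (log2 ratios -1.55 and -1.63) and ZNHIT6, a box C/D snoRNP assembly factor, at 0.125 (-1.38 and -1.48). ASNS, asparagine synthetase, followed at 0.129 (-1.40 and -1.71) and HSBP1L1 at 0.153 (-1.47 and -1.44). The measure rests on 3 libraries, and no shared function or control is read from it.

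Other noncoding snoRNA hosts lay on both sides of control. Of 17 found in the table, 14 reached a mean of 1 RPKM, and 5 of these were lower and 9 higher with si-RBCK1 #1 (median log2 ratio 0.10), with 6 lower and 8 higher with si-RBCK1 #2 (median 0.12). Among those averaging 5 RPKM or more the medians were -0.07 and -0.20. The share of all genes lower by any amount was 48.4% and 46.4%. EPB41L4A-AS1, the host of SNORA13, was the lowest of them, with 41.1, 15.7 and 15.7 RPKM and log2 ratios of -1.34 and -1.33, while SNORA13 had 8, 9 and 6 reads. SNHG11 (-0.71 and -0.46), LRRC75A-AS1 (-0.26 and -0.59) and SNHG3 (-0.37 and -0.35) were also below control in each library. On the other side stood DANCR (0.24 and 0.30), SNHG19 (0.33 and 1.21), SNHG25 (0.79 and 0.78, from 3 control reads), SNHG20 (0.52 and 0.16), SNHG10 (0.05 and 0.17), SNHG4 (0.11 and 0.09) and SNHG7 (0.09 and 0.18). SNHG9 (-0.53 and 0.79), SNHG17 (0.15 and -0.05) and SNHG21 (0.11 and -0.02) had opposite signs with the siRNAs.

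Protein-coding hosts of snoRNAs outside the ribosomal proteins had median log2 ratios of 0.27 and 0.17 over 20 genes. HSPA8, the constitutive HSP70 chaperone, was the highest of them at 250, 822 and 846 RPKM (1.72 and 1.76), and TAF1D, an RNA polymerase I factor, had the largest fall when each gene is taken by the smaller of its ratios, at 43.1, 24.0 and 26.0 RPKM (-0.82 and -0.71). EIF4A1 was listed at 0 in each library and is not among the 20 genes, and whether its RNA was absent was not tested. Of the 9 host genes, SNHG12, ZFAS1 and SNHG5 had a run of C or T over at least 5 bases at the annotated start. Log2 ratios were 0.03 and 0.43 for SNHG12, -1.03 and -1.39 for ZFAS1 and -0.39 and -0.43 for SNHG5. The 79 cytosolic ribosomal protein genes, whose mRNAs carry the TOP tract, lay mostly above control. Their median log2 ratios were 0.29 and 0.14, with 72 and 63 of 79 higher than si-Control, where 51.5% and 53.5% of all genes were. By the same measure RPL10A (-0.25 and -0.23) had the largest fall of these genes. Other TOP mRNAs, 16 genes mostly of translation, had medians of 0.11 and -0.04, with EEF1D (0.62 and 0.65) and NAP1L1 (-0.30 and -0.32) as the largest rise and fall.

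Among 12 regulators of TOP mRNAs, EIF4EBP1, the repressor of cap-dependent initiation, had 147, 62.3 and 63.5 RPKM and log2 ratios of -1.23 and -1.20, while RPS6KB2, an S6 kinase, had ratios of 0.51 and 0.34. The medians of the list were -0.12 and -0.08. Of 19 genes for snoRNP core and assembly proteins, with medians of 0.05 and -0.06, ZNHIT6 was the lowest at 15.1, 5.21 and 4.78 RPKM, and SHQ1, an H/ACA assembly factor, had the largest rise (0.57 and 0.79). NOP58, a core protein of box C/D snoRNPs, had 95.2, 48.3 and 38.2 RPKM (-0.96 and -1.30). The other core proteins of that particle were the methyltransferase FBL (0.31 and 0.05), NOP56 (0.53 and 0.44) and SNU13 (0.02 and -0.06). In the H/ACA particle the pseudouridine synthase DKC1 had ratios of -0.48 and -0.84, NHP2 had 0.76 and 0.56, NOP10 had 0.14 and -0.07 and GAR1 had 0.02 and -0.17. These core proteins were named after their values were seen.

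The 19 genes for nonsense-mediated decay and exon junction factors had median log2 ratios of 0.02 and -0.03, with RNPS1 highest (0.78 and 0.97) and UPF3B, which links the exon junction complex to decay, lowest (-0.85 and -0.59). UPF1, the central helicase of the pathway, had 20.9, 24.0 and 26.9 RPKM and ratios of 0.19 and 0.35. Of 8 mRNAs known as substrates of the pathway, 7 were lower with si-RBCK1 #1 and 8 with si-RBCK1 #2, with medians of -0.46 and -0.54, where 48.4% and 46.4% of all genes were lower. GADD45A, a growth arrest gene, was the lowest of them at 369, 156 and 119 RPKM (-1.24 and -1.62). Of the others UPP1 was at -1.06 and -1.19, DDIT3 at -0.96 and -0.61, ATF3 at -0.64 and -0.86 and ATF4 at -0.28 and -0.48. GABARAPL1 was at -0.11 and -0.25, GADD45B at -0.01 and -0.38, and TBL2, the 1 gene above control with si-RBCK1 #1, at 0.16 and -0.08. UPF1 and these others were also named with their values known. Whether decay or any other control of these mRNAs has a part in the low ratios was not tested.

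**Figure D5:**
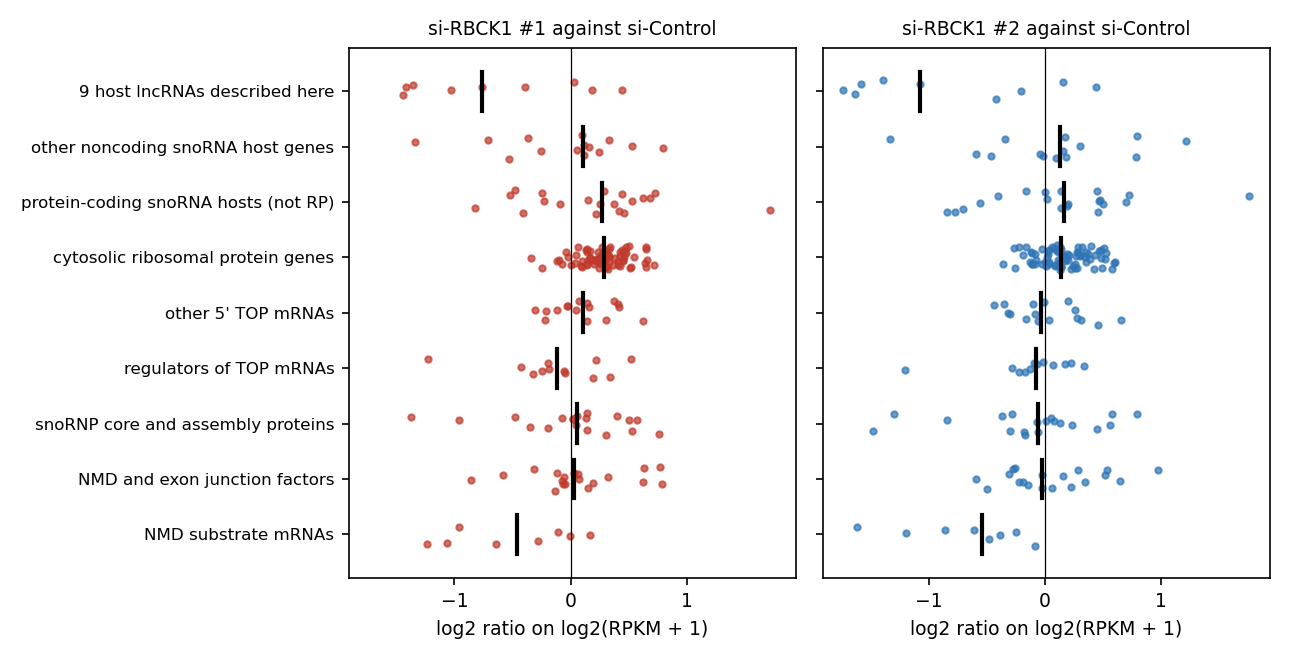
Log2 ratio on log2(RPKM + 1) to si-Control of each gene (points) in the 9 host lncRNAs and in 8 lists of genes of snoRNA, TOP mRNA and nonsense-mediated decay (NMD) biology, for each knockdown library, with black bars at the medians and vertical jitter for visibility (RP, ribosomal protein). The median of the 9 host lncRNAs lies at -0.76 and -1.08, that of the ribosomal protein genes at 0.29 and 0.14 and that of the NMD substrate mRNAs at -0.46 and -0.54.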

How the data were processed

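The authors deposited 1 table with an RPKM value for each gene and library, a read number divided by gene length and library depth. Per the labels, RNA was depleted of ribosomal RNA and sequenced in pairs on an Illumina instrument, and the submitters' processing notes name FastQC, Trimmomatic, TopHat2, HTSeq and hg19 without their roles. The gene annotation is not given in the sources used here. The table's own comparison columns (control value, treated mean, log2 fold change, p-value and q-value) were not used.

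Groups came from the sample titles. Library totals were found from rows of at most 200 bases, of which 580 of 586, 569 of 572 and 643 of 646 gave whole reads within 0.01, and for longer rows the smallest whole reads and length that give the 3 RPKM values were searched. Log2 ratios used a pseudocount of 1 RPKM, which understates the change of low genes, for genes that average 1 RPKM or more. With 1 library per condition no test was possible and no p-value was computed. Counting intervals were exact Clopper-Pearson (95%).

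The 9 genes, the lists and the fold limits were chosen with earlier results of these data known. Genes named are the 9, RBCK1, the snoRNA rows inside the 9, neighbours on the other strand that overlap them or start within 2000 bases, the 5 genes nearest to GAS5, every other noncoding host gene and, per list, the largest rise and fall by the smaller of both ratios, of which 1 is not reported here. Cell markers, EIF4A1 and other list members were named outside this rule, with their values known. Alternatives were other library scalings, pseudocounts, filters, noncoding genes only and means in place of medians. The steps were tested on simulated data. The software was scipy 1.17.1, pandas 2.3.3, numpy 2.4.6 and matplotlib 3.10.9 under Python 3.11.15.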

Additional observations from a re-analysis of the deposited data

How the results depend on the processing

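No paired analysis was possible because there was a single library for every condition, and no library could be left out. Of 90 log2 ratios of the 9 genes under the alternatives, 83 moved by no more than the width of the counting interval divided by 2. Another 6 moved by more with the same sign. The remaining 1 changed sign, SNHG12 with si-RBCK1 #1, at -0.0254 with libraries scaled to equal totals. The 18 counts of the 9 genes past a fold limit stayed within 1.5 times their value. Another scaling shifted the median log2 ratio of all genes by -0.01 to -0.05. The share of all genes at least 1.5-fold lower with si-RBCK1 #1 and #2 became 4.76% and 3.83% with a pseudocount of 5 RPKM, 4.15% and 3.29% with no filter, and 17.7% and 15.5% among genes that are not protein-coding. At least 2-fold lower were 5.89% and 4.21% with a pseudocount of 0.1 RPKM, 0.847% and 0.782% with 5 RPKM, 1.1% and 0.765% with no filter, and 7.56% and 4.73% among genes that are not protein-coding. The median of the other noncoding hosts changed sign to -0.0726 (si-RBCK1 #1) and -0.197 (si-RBCK1 #2) at a mean of at least 5 RPKM, and the mean was -0.0561 for si-RBCK1 #1. For ribosomal protein genes the median became 0.233 and 0.107 with equal totals and 0.0893 for si-RBCK1 #2 with equal medians. Small medians changed sign for snoRNP proteins (si-RBCK1 #1, -0.000548 with equal totals), for decay factors (si-RBCK1 #1, -0.0300 with equal totals, and si-RBCK1 #2, 0.0179 at 5 RPKM and 0.0618 as a mean) and for other TOP mRNAs (si-RBCK1 #2, 0.0213 as a mean). The cause was not tested. Depth limits the snoRNA rows most, many of which had under 50 reads, while the 9 host RNAs had 514 reads or more in each library.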
